A study of Rattus norvegicus with 12 samples.

Results

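Potassium channel subunit genes were followed in the CA1 region of the rat hippocampus, 68 genes of the 10411 that carry a single symbol on the array. They were taken by name, as every gene whose symbol begins with Kcn apart from Kcnj3, Kcnj6, Kcnj9, Kcnj10 and Kcne2, and are read by 96 probe sets of 15866. RNA came from microdissected CA1 of young male Long-Evans rats, 3 to 4 months old, on 12 Affymetrix RAE230A arrays, 1-colour arrays of 25-base probes grouped into probe sets. The titles call the arrays biological replicates and do not say whether each held RNA of a single animal, so the p-values measure the spread between these samples. All rats had first learned a standard water maze. After 2 to 3 weeks they were given 8 trials to a visible platform in a different maze, spaced by 8 minutes. A probe test without platform, lasting 90 seconds, came 1 hour later, and tissue was taken straight after it. In the spatial learning group (6 arrays) the platform stayed in place among orienting cues. In the control task group (6 arrays) it moved from trial to trial and no informative cues were given. Below, controls are the control task arrays, and values after learning are those of the spatial learning arrays. All signals are on the log2 scale as the authors deposited them, and all differences are spatial learning minus control task.

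Potassium channels let potassium leave a neuron and so set its resting potential, the shape and rate of its spikes and how far synaptic signals travel along a dendrite. The voltage-gated families (Kcna, Kcnb, Kcnc, Kcnd, Kcnh, Kcnq) open on depolarisation, the calcium-activated families (Kcnma, Kcnn) open when calcium enters, the inward rectifiers (Kcnj) and the tandem-pore channels (Kcnk) hold the resting potential, and Kcnt is gated by sodium. Auxiliary subunits attach to them: Kcnab to the Kcna channels, Kcnip to the Kcnd channels and Kcnmb to Kcnma1, while Kcng, Kcns and Kcnv are silent subunits that work only together with Kcnb channels. In CA1 pyramidal cells the Kcnd channels carry the dendritic A-type current and the Kcnq channels the M-current, both of them well known for their part in excitability and plasticity.

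Of the 96 probe sets, 37 had a mean of at least 4 over all 12 arrays and were tested, covering 28 genes and 16 of the 18 subfamilies. The other 59 were below this level, and for 40 genes no probe set reached it. Of all probe sets on the array 60.6% passed, against 38.5% of these. The brightest was Kcnab2, a cytoplasmic beta subunit of Kcna channels, with a mean of 10.48, brighter than 94.6% of all probe sets. Next in order of signal came Kcnip2, a calcium-binding partner of the Kcnd channels, at 9.70, Kcnd2, the pore subunit of the A-type channel, at 9.58, and Kcnmb4, the neuronal beta subunit of the large-conductance calcium-activated channel, at 9.24. Then followed Kcnc2, a pore subunit of fast-spiking neurons, at 9.04, Kcna1 at 8.79, Kcnc1 at 8.61 and Kcnab1 at 8.57. Neighbours in this order are set by how well their probes bind as well as by RNA, so that the order is one of signals and not of transcript amounts.

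The subfamilies differed in how many members gave a signal. All 4 Kcnip genes and all 3 Kcnc genes had a tested probe set, whereas only 1 of 8 Kcnh genes, 3 of 11 Kcnj genes and 2 of 11 Kcnk genes did, and neither Kcnb2 (2.50) nor the minK-type subunits Kcne1 (2.21) and Kcne3 (3.01). Below the filter the voltage-gated genes were Kcna2 at 3.41, Kcna3 at 2.39, Kcna5 at 2.98, Kcnd1 at 3.43, Kcnq1 at 2.37, Kcnh1 at 3.08, Kcnh2 at 3.58, Kcnh4 at 1.52, Kcnh5 at 3.40, Kcnh6 at 3.39, Kcnh7 at 2.67 and Kcnh8 at 2.76. The auxiliary and silent ones were Kcnab3 at 2.16, Kcnmb1 at 1.98, Kcng3 at 2.35, Kcns1 at 2.56, Kcns2 at 2.84 and Kcnv2 at 2.40, and the calcium-activated ones Kcnn3 at 2.62 and Kcnn4 at 3.02. Among inward rectifiers Kcnj1 stood at 2.91, Kcnj2 at 2.51, Kcnj5 at 2.43, Kcnj8 at 3.24, Kcnj12 at 3.26, Kcnj13 at 3.63, Kcnj15 at 2.47 and Kcnj16 at 3.23. Among tandem-pore channels Kcnk3 stood at 3.17, Kcnk4 at 2.83, Kcnk5 at 2.80, Kcnk6 at 2.94, Kcnk9 at 1.80, Kcnk10 at 3.02, Kcnk12 at 1.17, Kcnk13 at 1.71 and Kcnk15 at 2.02. Where such a gene has several probe sets, the brightest is given. A low signal here can come from a probe set that binds poorly, and does not show that the transcript was absent.

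**Figure D1:**
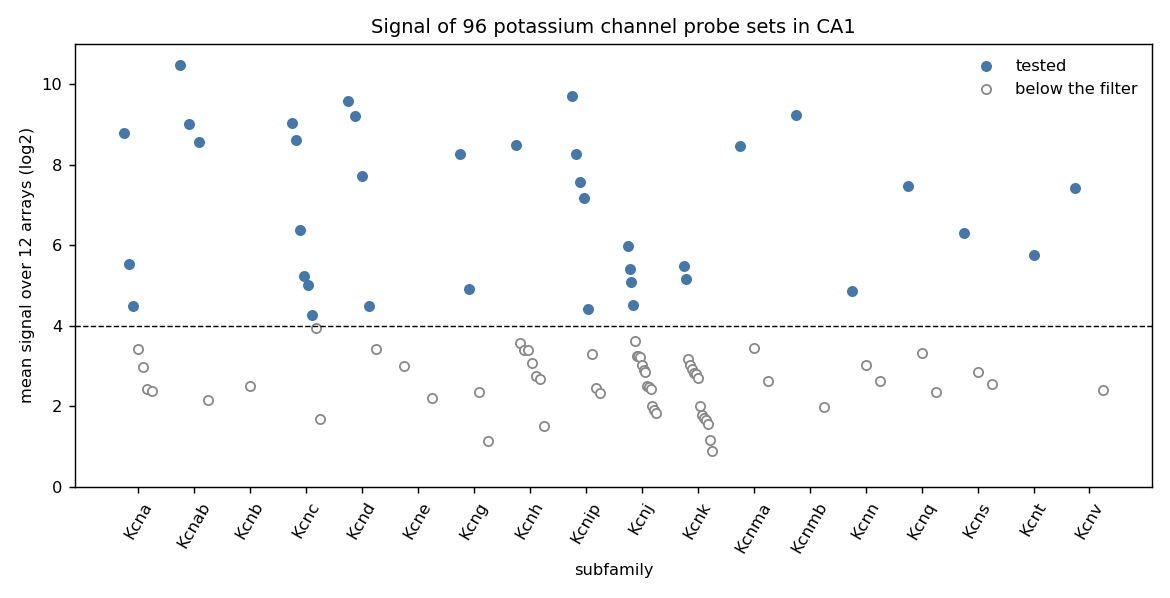
Mean signal over the 12 arrays (log2, y axis) of each of the 96 potassium channel probe sets by subfamily (x axis), with tested probe sets filled and those below the dashed line at 4 open. The Kcnip, Kcnd, Kcnc and Kcnab subfamilies hold most of the bright probe sets, while 13 of 17 Kcnj and 13 of 15 Kcnk probe sets lie below the line.

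None of the potassium channel genes passed the test between the tasks. With limma, 0 of 37 probe sets had an adjusted p under 0.05, as was so for 0% of the 9610 probe sets tested on the array, and the smallest adjusted p among these genes was 0.388. At an unadjusted limma p under 0.05 there were 7 of 37 (18.9%), 5 higher and 2 lower after spatial learning, against 10.9% of all tested probe sets (6.36% higher and 4.55% lower). The 7 were Kcnab2 (both probe sets, in opposite directions), Kcnab1, Kcnip2, Kcng2, Kcna6 and Kcnq3. The exact rank-sum test gave 6 of 37 at an unadjusted p under 0.05, against 9.32% of all tested. Its 6 left out Kcnab1 and Kcnq3 and took in Kcnk1. In all, 18 probe sets were higher and 19 lower, with a median difference of -0.02 beside 0.01 over all tested probe sets. A difference of at least 0.2 in size, in 5 of 37, was found in 7.79% of all tested probe sets, and the median size of a difference was 0.10 here and 0.06 over all. The groups did not overlap in 0 of the 37, against 0.635% of all tested (0.364% higher and 0.271% lower). The median SE was 0.08, and 0.07 over all tested probe sets. In simulated data, drawn independently with each probe set's spread, 100 changes of 0.5 and 100 of 1 were planted. The same test recovered 85% and 98% of them. So many planted changes ease the adjustment, and 0 of the 9610 probe sets passed in the real data. These shares are therefore no measure of power for these genes. CA1 tissue holds several cell types, so that fewer cells of a type and less RNA per cell cannot be told apart in any of these values.

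**Figure D2:**
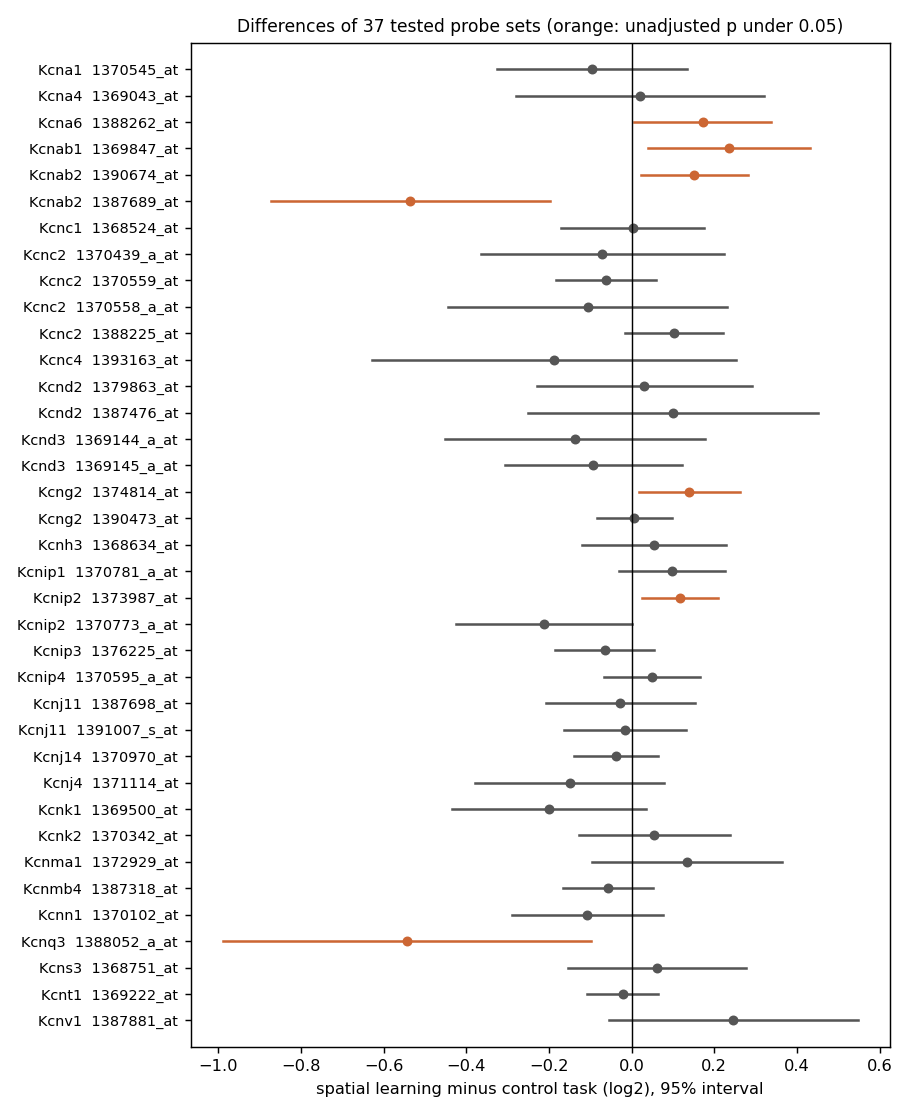
Difference between spatial learning and control task (log2, x axis) with its 95% limma interval for each of the 37 tested probe sets, 6 arrays a group, ordered by subfamily. Intervals of the 7 orange probe sets, those with an unadjusted p under 0.05, leave out 0, and no probe set passed after adjustment.

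The beta subunits of the Kcna channels included 3 of the 7 probe sets with an unadjusted limma p under 0.05, among them the one with the smallest p. Kcnab1 and Kcnab2 encode cytoplasmic proteins that bind the channel's inner face, and Kcnab1 speeds its inactivation. The 2 tested Kcnab2 probe sets, with means of 10.48 and 9.02, gave opposite signs. On the dimmer one the control task arrays ranged from 8.95 to 9.70 with a median of 9.32, and the spatial learning arrays from 8.31 to 9.23 with a median of 8.68. Of the 6 spatial learning arrays 4 lay below the lowest control, and replicates 4 and 5 lay within the control range. The difference was -0.54 (SE 0.16, a 1.45-fold lower mean signal, limma adjusted p = 0.388). On the brighter one the control task arrays ranged from 10.33 to 10.55 (median 10.37) and the spatial learning arrays from 10.45 to 10.80 (median 10.53), a difference of 0.15 (SE 0.06, limma adjusted p = 0.429). Here spatial learning replicate 5 stood highest, and 6 of 6 spatial learning arrays lay above the control median. Without replicate 5 the difference on this probe set was 0.10 (limma unadjusted p = 0.0396). Kcnab1 ranged from 8.28 to 8.603 (median 8.47) in controls and from 8.51 to 8.95 (median 8.61) after learning, with replicates 1 and 5 highest. Its difference was 0.24 (SE 0.09, limma adjusted p = 0.429), and without spatial learning replicate 5 it was 0.19 (limma unadjusted p = 0.0535). The third gene, Kcnab3, was below the filter.

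The gap between the 2 Kcnab2 probe sets on the same array was the one potassium channel measure that passed a test, in a comparison added after the values above were seen. It was between 0.85 and 1.43 (median 1.09) on the control task arrays and between 1.54 and 2.14 (median 1.85) on the spatial learning arrays. All 6 spatial learning gaps lay above all 6 control gaps, which was so, in either direction, for 1.31% of the 1144 such pairs of probe sets of 1 gene on the array. The gap widened by 0.69 (95% interval 0.42 to 0.96, limma adjusted p = 0.0443 over the 1144 pairs, exact permutation p = 0.00216, unadjusted and the smallest that 6 against 6 can give). Over all pairs 3 passed, 0.262%, and of the 9 potassium channel pairs 1 did. At an unadjusted limma p under 0.05 there were 2 of the 9, Kcnab2 and Kcnip2, against 9.88% of all pairs. The call is close to its threshold: it was past it in 4 of 12 fits with an array left out, the adjusted p ranging from 0.0288 to 0.124, and the adjusted p was 0.898 with the hexokinase covariate described below. A widening gap shows that the probe sets changed unequally and not which of them changed. What part of the transcript each probe set reads was not analysed here.

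**Figure D3:**
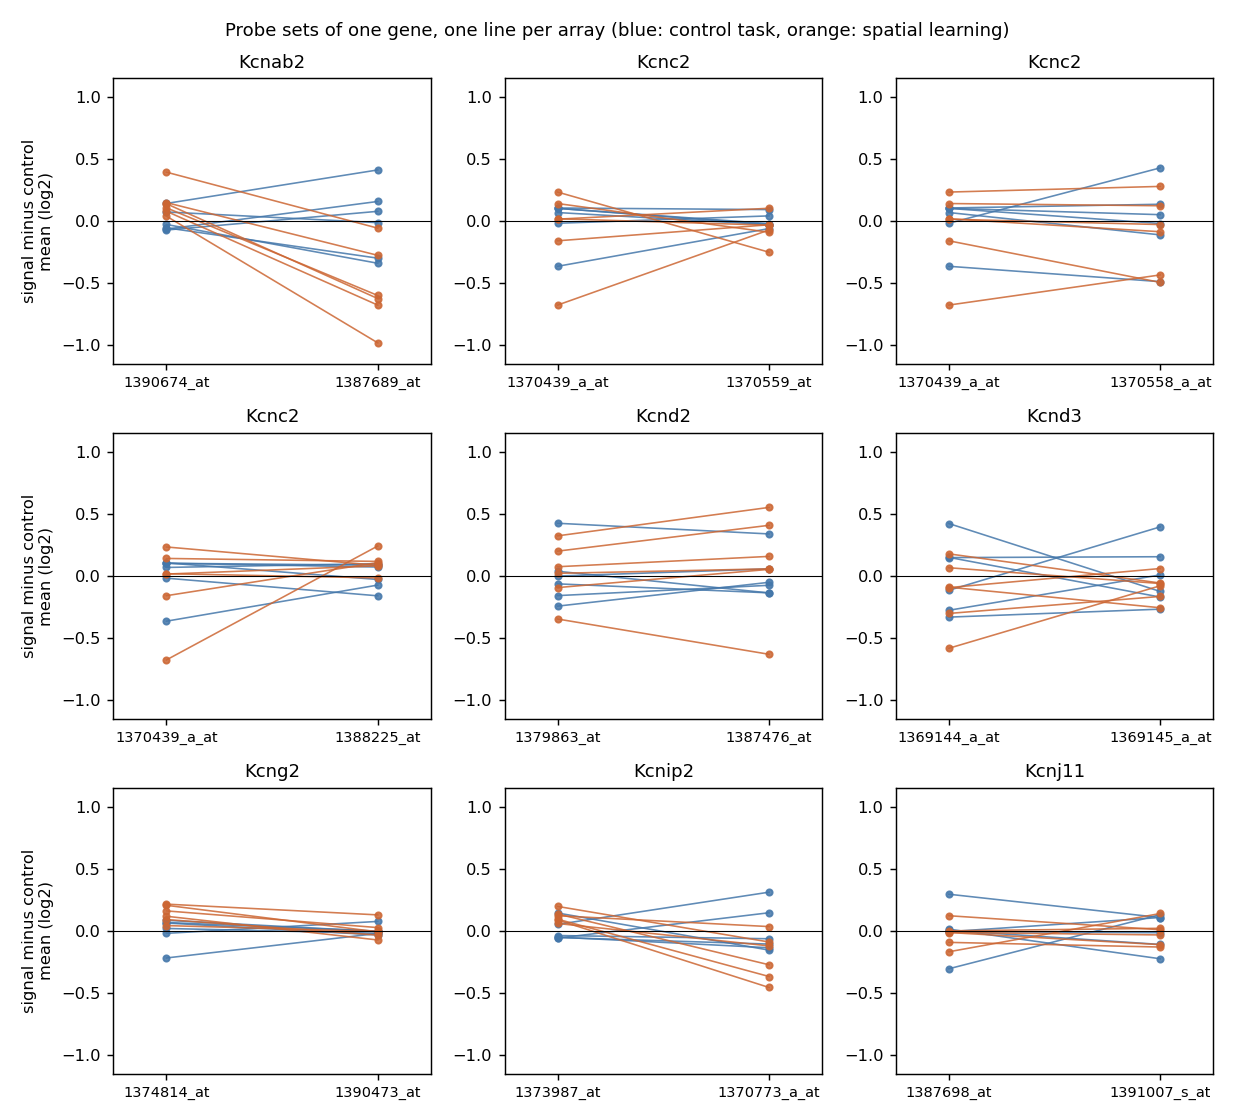
Signal of each array minus the control task mean of that probe set (log2, y axis) for the brightest (left) and another tested probe set (right) of each gene with at least 2 tested, 9 pairs in 7 genes, 1 line per array. The Kcnab2 lines of the spatial learning arrays (orange) all run downward from left to right. Those of the control task arrays (blue) run both ways, none falling as steeply as an orange line. The lines of the Kcnd2, Kcnj11 and Kcnc2 pairs mix.

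Promoter windows are shown for Kcnab1, Kcnab2 and Kcnip2, the genes of the Kcna and Kcnd auxiliary subunits among the 7 probe sets with an unadjusted p under 0.05. Each is a window of 300 bases around the RefSeq start on GRCr8, most of it before the start, 5′ to 3′ on the gene's strand, at chr2:151614301-151614600 (plus strand) for Kcnab1, chr5:168270711-168271010 (minus) for Kcnab2 and chr1:254613849-254614148 (minus) for Kcnip2. Capitals mark matches, on either strand, to the GC box GGGCGG, the cyclic AMP response element TGACGTCA and its core TGACG, which the full element contains, and the CCAAT box.
Kcnab1: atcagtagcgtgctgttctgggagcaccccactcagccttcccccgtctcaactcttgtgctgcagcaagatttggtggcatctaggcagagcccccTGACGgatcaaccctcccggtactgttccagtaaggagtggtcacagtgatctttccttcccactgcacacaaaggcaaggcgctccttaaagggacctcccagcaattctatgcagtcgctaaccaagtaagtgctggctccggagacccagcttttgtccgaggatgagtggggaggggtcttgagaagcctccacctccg
Kcnab2: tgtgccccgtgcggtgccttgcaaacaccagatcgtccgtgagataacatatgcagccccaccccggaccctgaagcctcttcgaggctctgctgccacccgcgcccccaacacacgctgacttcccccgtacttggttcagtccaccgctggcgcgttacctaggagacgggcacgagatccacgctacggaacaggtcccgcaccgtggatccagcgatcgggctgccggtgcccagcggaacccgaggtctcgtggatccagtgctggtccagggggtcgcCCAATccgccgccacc
Kcnip2: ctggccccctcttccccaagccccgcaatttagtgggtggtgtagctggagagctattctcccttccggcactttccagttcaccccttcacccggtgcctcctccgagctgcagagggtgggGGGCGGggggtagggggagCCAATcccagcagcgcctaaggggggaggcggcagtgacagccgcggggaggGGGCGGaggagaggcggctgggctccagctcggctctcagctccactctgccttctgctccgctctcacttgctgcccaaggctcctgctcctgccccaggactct
The Kcnab1 window held 1 TGACG core, the Kcnab2 window 1 CCAAT box, and the Kcnip2 window 2 GC boxes and 1 CCAAT box. Of the 68 genes 47 had a window. A GC box was found in 26 of these (55.3%) and in 34.9% of all 27457 windows of the same length, the core in 10 (21.3%) and 22.0%, the CCAAT box in 11 (23.4%) and 37.7%, and the full element in 0 and 1.91%. The median share of G and C was 61.7% in the potassium channel windows and 52.3% in all. The 27457 windows go far beyond the 10411 genes of the array and are an unlike background. The shares were not compared by a test. All of these are letter matches and not measured binding.

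Pore subunits that these beta subunits join did not pass the test, and only the dim Kcna6 had an unadjusted limma p under 0.05. Kcna1, which opens at low voltage along axons, ranged from 8.56 to 8.98 (median 8.86) in controls and from 8.34 to 9.07 (median 8.79) after learning, a difference of -0.10 (95% interval -0.33 to 0.13, limma adjusted p = 0.780). Kcna4, which gives a fast inactivating current, differed by 0.02 (interval -0.28 to 0.32). The groups overlapped widely in both. Kcna6 ranged from 4.31 to 4.48 (median 4.41) and from 4.39 to 4.93 (median 4.53), with 5 of 6 spatial learning arrays above the highest control and replicate 5 highest. Its difference was 0.17 (SE 0.08, limma adjusted p = 0.447), at a signal just above the filter, and 0.10 without spatial learning replicate 5 (limma unadjusted p = 0.0556). The second Kcna6 probe set, at 2.42, was below the filter.

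Kcnip2 and the Kcnd channels form the A-type channel complex of CA1 dendrites, in which the Kcnip proteins bring the pore subunit to the membrane and alter its inactivation. Kcnip2 on its brightest probe set ranged from 9.58 to 9.79 (median 9.60) in controls and from 9.70 to 9.84 (median 9.75) after learning. Each of the 6 spatial learning arrays lay above 5 of the 6 controls, and control replicate 6 overlapped with them. The difference was 0.12 (SE 0.04, limma adjusted p = 0.429). On the next brightest the gene gave the opposite sign, 8.21 to 8.67 (median 8.28) against 7.91 to 8.40 (median 8.17), a difference of -0.21 (SE 0.10, limma adjusted p = 0.458). The gap between these 2 probe sets was 1.28 ± 0.20 in controls and 1.61 ± 0.17 after learning (mean ± SD, n = 6 each). It differed by 0.33 and did not pass over all pairs (limma adjusted p = 0.217). A further probe set, at 2.32, was below the filter.

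The other members of the complex did not separate the groups. Kcnip3, a calcium sensor that also acts as a transcriptional repressor, was tightly grouped, from 7.19 to 7.24 in controls and from 6.91 to 7.23 after learning, with replicate 5 lowest, a difference of -0.07 (SE 0.06). Kcnip4 differed by 0.05 (SE 0.05) and the dim Kcnip1 by 0.10 (SE 0.06). Limma adjusted p lay between 0.567 and 0.771 for these 3. Kcnd2 ranged from 9.32 to 9.99 (median 9.53) in controls and from 9.22 to 9.89 (median 9.61) after learning on the brighter probe set, a difference of 0.03 (95% interval -0.23 to 0.29, limma adjusted p = 0.948). Its second probe set gave 0.10 (interval -0.25 to 0.45), with spatial learning replicate 6 lowest at 8.52 and replicate 5 highest at 9.71. The brighter value depended on the arrays and the model, from -0.03 to 0.12 with an array left out (0.12 without control replicate 6), -0.23 with the CA3 and dentate covariate and 0.21 without 3 arrays, both described below. Kcnd3, the A-type subunit also found in interneurons, gave -0.14 and -0.09 on its 2 probe sets, with limma adjusted p of 0.768 and 0.769.

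Pore subunits of the Kcnc family and the silent subunits came next. Kcnc1 and Kcnc2 give currents that open and close fast enough for high firing rates, and Kcnc4 belongs to the same family. Kcnc1 stood at 8.61 ± 0.12 in controls and 8.61 ± 0.17 after learning (mean ± SD, n = 6 each), a difference of 0.00 with a 95% interval of -0.17 to 0.17. The 4 tested Kcnc2 probe sets gave -0.07, -0.06, -0.11 and 0.10 in order of signal, none past the test. On the brightest of these control replicate 6, at 8.71, and spatial learning replicate 5, at 8.40, were lowest in their groups. Its difference was 0.05 without the latter array and -0.14 without the former. Kcnc4 spread widely in controls, from 5.74 to 7.003, and narrowly after learning, from 6.07 to 6.40, which lay wholly inside it, a difference of -0.19 (limma adjusted p = 0.772).

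Kcng2, which forms channels only with Kcnb subunits, ranged from 7.99 to 8.29 (median 8.25) in controls and from 8.25 to 8.42 (median 8.35) after learning. Of the 6 spatial learning arrays 5 lay above the highest control, and control replicate 1 stood lowest. The difference was 0.14 (SE 0.06, limma adjusted p = 0.431), and its second tested probe set, at a mean of 4.91, gave 0.01 (95% interval -0.08 to 0.10). Kcnv1, another silent subunit, ranged from 6.98 to 7.53 (median 7.38) and from 7.09 to 7.87 (median 7.62), with 4 of 6 spatial learning arrays above the highest control and a difference of 0.25 (95% interval -0.06 to 0.55, limma adjusted p = 0.541). Kcns3 gave 0.06 (limma adjusted p = 0.857). The groups overlapped in each of these.

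**Figure D4:**
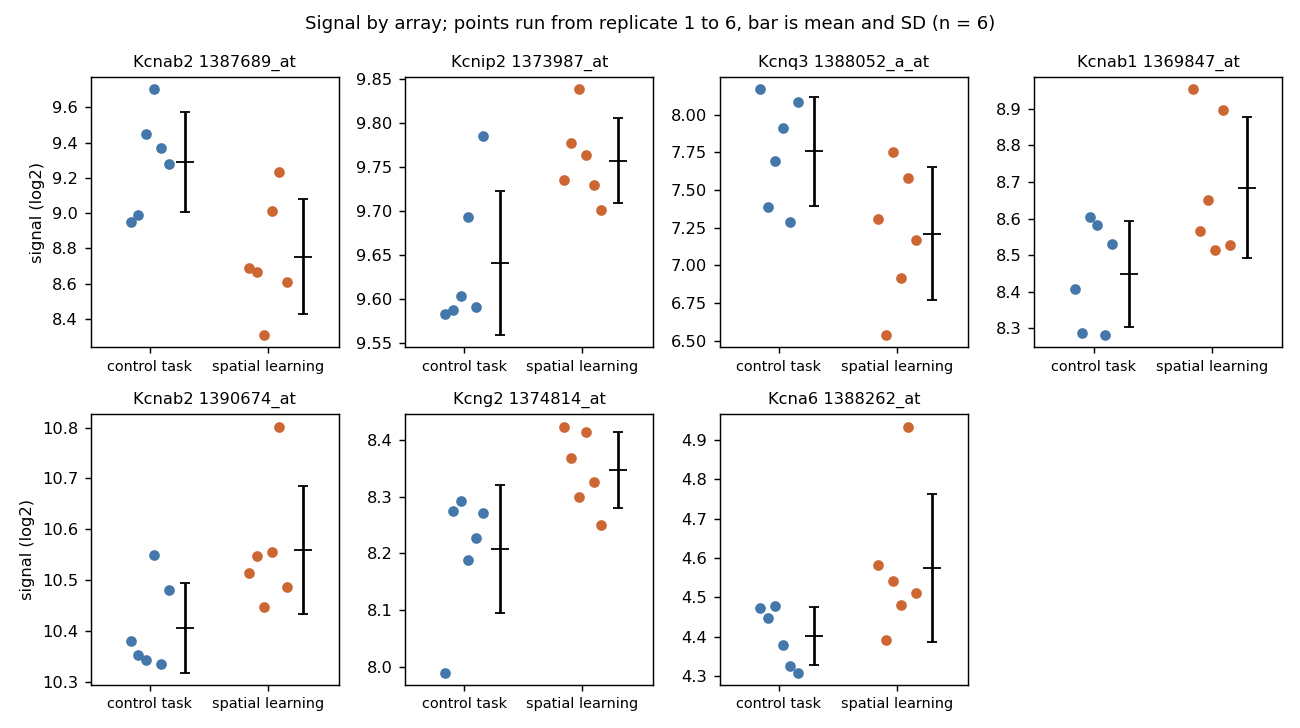
Signal of each array (log2, y axis, a separate scale for each panel) for the 7 probe sets with an unadjusted p under 0.05, points from replicate 1 to 6 within each task, with the mean and SD of 6 arrays beside them. The groups overlap in every panel, and spatial learning replicate 5 stands highest in the panels of the brighter Kcnab2 probe set and Kcna6.

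Kcnq3, a subunit of the M-channel that is closed by acetylcholine and other transmitters and restrains repeated firing, had the lowest difference of the tested members. It ranged from 7.29 to 8.17 (median 7.80) in controls and from 6.54 to 7.75 (median 7.24) after learning. Of the 6 spatial learning arrays 3 lay below the lowest control, and 6 of 6 lay below the control median. The difference was -0.54 (SE 0.21, a 1.46-fold lower mean signal, limma adjusted p = 0.429), and the spread within each group was among the widest of these genes. Its other probe set was below the filter, at 3.32. Kcnh3, an ether-a-go-go type channel of the forebrain, differed by 0.05 (95% interval -0.12 to 0.23).

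Calcium- and sodium-activated subunits did not pass. Kcnma1, the pore of the large-conductance channel that shortens spikes, ranged from 8.18 to 8.68 (median 8.38) in controls and from 8.12 to 8.79 (median 8.55) after learning, a difference of 0.13 (95% interval -0.10 to 0.36, limma adjusted p = 0.678). Spatial learning replicate 5 was the lowest of all 12 arrays. Its neuronal beta subunit Kcnmb4 differed by -0.06 (interval -0.17 to 0.05). The small-conductance channel Kcnn1, which adds to the pause after a spike, gave -0.11 (interval -0.29 to 0.08), and the sodium-activated Kcnt1 -0.02 (interval -0.11 to 0.06).

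Inward rectifier and tandem-pore channels were dim, and none passed the test. Kcnj11, the pore of the ATP-sensitive channel that links membrane potential to metabolism, gave -0.03 and -0.02 on its 2 tested probe sets. Kcnj14 gave -0.04 and Kcnj4 -0.15 (95% interval -0.38 to 0.08, limma adjusted p = 0.633). A second Kcnj4 probe set, at a mean of 3.02, was the only one of the 59 below the filter whose groups did not overlap, from 2.86 to 3.88 in controls and from 2.69 to 2.85 after learning. Fitted with no filter it differed by -0.45 (limma adjusted p = 0.501). At so low a signal such values tell little about RNA. Kcnk1, a tandem-pore channel of neurons and glia, ranged from 5.04 to 5.39 (median 5.28) and from 4.68 to 5.25 (median 5.22), with spatial learning replicates 1 and 3 lowest, a difference of -0.20 (95% interval -0.43 to 0.04, limma adjusted p = 0.524). Kcnk2, which responds to stretch and fatty acids, gave 0.06 (interval -0.13 to 0.24).

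The dissection and the RNA were checked beside these values. The CA1 markers Wfs1, Fibcd1 and Itpka were bright on every array, at no less than 11.60, 9.77 and 10.75. Over the 8 CA1 marker genes measured, the per-array mean lay between 9.27 and 9.57 in controls and between 9.38 and 9.73 after learning, and 8 of 8 had higher group means after spatial learning. The 9 measured dentate genes lay between 6.03 and 6.29 and between 5.96 and 6.16, and 5 of the 6 tested were lower. The 6 CA3 genes lay between 9.08 and 9.35 and between 9.03 and 9.41, and 4 of 6 were lower. The 10 astrocyte genes lay between 10.55 and 10.68 and between 10.47 and 10.63 (9 of 10 lower), the 10 microglial genes between 5.93 and 6.28 and between 5.85 and 6.15 (8 of 8 tested lower), and the 9 oligodendrocyte genes between 9.996 and 10.43 and between 10.04 and 10.44 (7 of 9 lower). Interneuron genes, 11 in number, lay between 7.56 and 7.70 and between 7.61 and 7.80, and the 10 vessel genes between 5.64 and 6.02 and between 5.63 and 5.90. The 8 choroid plexus genes lay between 4.21 and 6.13, highest on control replicate 3, and between 4.07 and 4.496, with 5 of 8 below the filter (Cldn2, F5, Folr1, Kl and Sostdc1). The 11 meningeal genes lay between 4.84 and 6.00 and between 4.74 and 5.87, highest on control replicate 6. All 3 tested choroid plexus genes were lower, with a median difference of -0.41. Ttr, which that tissue makes in quantity, ranged from 4.55 to 13.41 in controls and from 3.66 to 4.43 after learning, every array below the lowest control. Kcnj13, an inward rectifier of the choroid plexus, was below the filter, from 3.60 to 3.63 in controls and from 3.60 to 3.76 after learning. The part of choroid plexus RNA in the potassium channel values was not tested beyond the fit without 3 arrays below. That fit kept control replicates 1 and 2, with Ttr at 6.08 and 7.54, so it did not even out this signal.

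A measure of RNA integrity differed between the groups. The level of CA3 and dentate markers, used as a measure of the dissection, overlapped between the groups and did not pass its test. The 3' minus 5' signal gap of the hexokinase control transcript, which reflects RNA integrity, was 1.48 ± 0.08 in controls and 1.65 ± 0.11 after learning (mean ± SD, n = 6 each, exact permutation p = 0.00433). On this measure 5 of the 6 spatial learning arrays lay above the highest control. A fit of both can therefore not cleanly tell the task from RNA integrity. With the hexokinase gap as a covariate 5 of the 37 probe sets had an unadjusted limma p under 0.05, 5 higher and 0 lower, against 6.30% of all tested (3.54% higher and 2.76% lower). They were the brighter Kcnab2 probe set, Kcnab1, Kcng2, Kcna6 and Kcnip1, while Kcnip2 stood at 0.11 (limma unadjusted p = 0.0928). The dimmer Kcnab2 probe set was then at -0.32 and Kcnq3 -0.45 (limma unadjusted p = 0.154 and 0.156), while Kcnab1 stood at 0.32 (0.0252). The mean level of the tested CA3 and dentate markers was 8.55 ± 0.08 and 8.42 ± 0.11 (n = 6 each, exact permutation p = 0.0519). With that as the covariate 4 of the 37 had an unadjusted limma p under 0.05, 0 higher and 4 lower (Kcnab2, Kcnd2, Kcnj4 and Kcnq3), against 6.88% of all tested (3.47% higher and 3.41% lower), with Kcnab1 at 0.17 and Kcnip2 at 0.09 (0.160 and 0.129), and the dimmer Kcnab2 probe set at -0.49 and Kcnq3 at -0.63 (0.0307 and 0.0332). The part of RNA integrity or dissection in them was not tested beyond these fits. Nor was it tested whether the task itself changed the CA3 and dentate markers, so their level is no measure of dissection alone. Without the 3 arrays high in choroid plexus or meningeal genes (control replicates 3 and 6 and spatial learning replicate 6), 9 of 37 had an unadjusted limma p under 0.05 and 0 passed, with a smallest limma adjusted p of 0.217, for Kcnip2 at 0.15. In that fit 11.6% of all tested probe sets had an unadjusted limma p under 0.05, and 5 of the 9610 passed. The Kcnd2 probe sets, both among the 9, were then at 0.21 and 0.35 (limma adjusted p = 0.403 and 0.238).

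**Figure D5:**
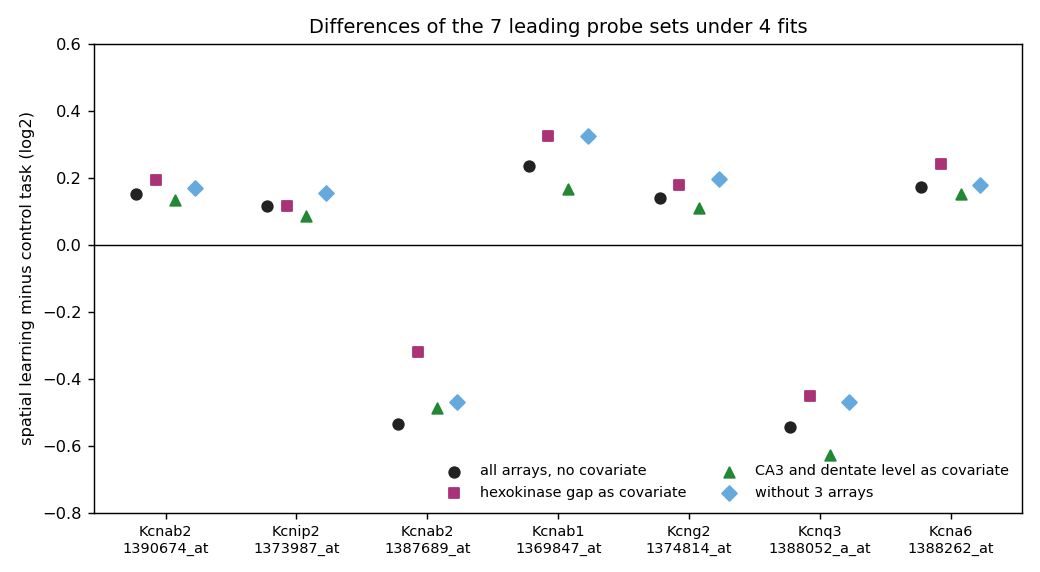
Difference between spatial learning and control task (log2, y axis) of the 7 probe sets with an unadjusted p under 0.05, fitted with all arrays, with the hexokinase gap or the CA3 and dentate marker level as a covariate, and without 3 arrays. The dimmer Kcnab2 probe set moves from -0.54 to -0.32 with the hexokinase covariate, and no value changes sign.

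Genes whose products anchor or modify potassium channels did not pass either. Of 46 such genes 33 were measured and 30 tested, with 42 probe sets, among them the Kcnd partner Dpp6, the Kcna-clustering Cntnap2 and Adam22, and the Dlg scaffolds. With limma 0 passed, and 3 of 42 (7.14%) had an unadjusted p under 0.05, against 10.9% of all tested probe sets. These 3 were the brightest Dlg3 probe set at 0.13 and, lower, Cntnap1 at -0.21 and the dimmer Dlg1 probe set at -0.26. The other Dlg1 probe set gave -0.05. Group means were higher on 15 and lower on 27 of the probe sets, and the median difference was -0.03. Dpp6, an auxiliary subunit of the A-type channel, stood at 0.08 on its brighter probe set (SE 0.04, limma adjusted p = 0.463) and at -0.03 on the other (SE 0.06, limma adjusted p = 0.869). Genes whose symbol begins with Scn, Hcn or Cacn gave 25 tested probe sets, 16 higher and 9 lower, with a median of 0.02. Most encode sodium, HCN or calcium channel subunits. Scnm1 and the Cacng genes came in by name and are not voltage-gated channel genes. Of the 25 probe sets 0 passed and 4 (16%) had an unadjusted limma p under 0.05, Cacng3 first among them, again beside 10.9% of all tested. Whether the potassium channel genes differ from the Scn, Hcn and Cacn genes was not tested.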

How the data were processed

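RNA of CA1 from 12 samples, 6 a task, was measured on Affymetrix RAE230A arrays. The deposited table holds log2 probe set summaries made by the authors with GCRMA, per the submitters' processing notes, a method that corrects background by probe sequence and normalizes between arrays. The sources used here do not give its version or settings. The log2 scale was read from the range of values, 0.134 to 14.8. GCRMA compresses differences of dim probe sets. Names come from the array's platform annotation, which can be old; of 15866 that are not controls 12783 have 1 symbol and 312 several. All 96 members matched a GRCr8 gene by Entrez identifier, under the same symbol.

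Probe sets with a mean of at least 4 entered a linear model of the task alone (limma 3.58.1, R 4.3.3), with moderated variances that follow the signal, and 2-sided p-values were adjusted by Benjamini-Hochberg over 9610 probe sets, threshold 0.05. The members, marker lists and tests were chosen with earlier results of these data known. Named genes were the first 6 by p in each direction, the brightest of each subfamily, a set of well-known members, genes with several tested probe sets, and probe sets with an array that stands apart. The gap between probe sets of 1 gene was fitted likewise without a trend over 1144 pairs. Single values were compared by 2-sided exact permutation over the 924 ways to choose 6 of 12 arrays. Alternatives changed the filter, the normalization (median centring, quantile), the test (no trend, robust, array weights, rank-sum), the unit (1 value a gene), the covariates and the arrays included. The fit was tested on simulated data (9604 probe sets, 100 changed by 0.5 and 100 by 1, 9 false calls). The array gives no read depth: the number of arrays limits the precision.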

Additional observations from a re-analysis of the deposited data

Results flagged for a closer look

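In 10 of the 74 groups of 6 arrays formed by the tested potassium channel probe sets, 1 array stood apart from the other 5 by Dixon's criterion, or 13.5%, beside 13.1% over all tested probe sets; chance flags about 1 group in 20. Spatial learning replicate 5 was the array in 5 of these. It stood above the others on the brighter Kcnab2 probe set (10.80 against at most 10.56), Kcna6 (4.93 against at most 4.58), Kcnip1 (4.73 against at most 4.49) and Kcnk2 (5.76 against at most 5.49), and below them on Kcnip3 (6.91 against at least 7.16). Over all tested probe sets it was likewise the array most often apart, in 472. Control replicate 6 stood below the others on Kcna1 (8.56 against at least 8.83) and on the brightest Kcnc2 probe set (8.71 against at least 9.06). Kcng2 had control replicate 1 low on its brighter probe set (7.99) and control replicate 4 high on the next (4.99), and spatial learning replicate 3 was low on Kcnj14 (5.25).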

How the results depend on the processing

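Under each of 24 alternatives to the fit, 0 potassium channel probe sets passed at an adjusted p of 0.05, with smallest adjusted p from 0.181 (without control replicate 6) to 0.770 (hexokinase covariate). Leaving out arrays in turn gave 4 to 8 probe sets with an unadjusted limma p under 0.05, against 8.11% to 11.9% of all tested. In these fits the median difference ran from -0.03 to 0.00. The median ranged over all alternatives from -0.03 to 0.03, from -0.03 to -0.00 for the partner genes and from -0.00 to 0.09 for the Scn, Hcn and Cacn genes. With no filter 12 of 96 had an unadjusted limma p under 0.05, against 9.77% of all 15866 probe sets.

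With an array left out 9 of the 37 differences changed sign at least once, none of them over 0.071 in size in the fit to all arrays (Kcna4, Kcnc1, Kcnc2, Kcnd2, Kcng2, both Kcnj11 probe sets, Kcnk2 and Kcns3).

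The Kcnab2 gap lost its call with no filter (0.69, adjusted p = 0.0750), the replicate block (0.69, 0.0865), the hexokinase covariate (0.51, 0.898), the CA3 and dentate covariate (0.62, 0.172) and without the 3 arrays (0.64, 0.175), and ranged from 0.62 to 0.75 with an array left out. Its direction held in every fit run. The replicate block left 5 potassium channel probe sets with an unadjusted limma p under 0.05, against 8% of all tested. It changed no other call. Deviations of same-numbered arrays from their group means had correlations from -0.17 to 0.08. Whether the numbers pair the samples was not tested.

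Of 848 values of the 36 named probe sets under alternatives, 9 changed sign while moving by over 1 SE of the value reported, and 0 passed. With the CA3 and dentate covariate these were Kcnd2 at -0.23 and -0.19, Kcnmb4 at 0.0067, 2 Kcnc2 probe sets at 0.17 and 0.11, Kcna1 at 0.10, Kcnh3 at -0.049 and Kcnd3 at 0.037, and with the hexokinase covariate a Kcnc2 probe set at 0.053. The cause was not tested. Dim signal limits the 59 probe sets below 4.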

Other observations

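Below the filter spatial learning replicate 5 also stood apart from its group on 11 of the 33 such occasions, on Kcna2, Kcna6, Kcnh5, Kcnh8, Kcnj5, Kcnj13, Kcnj15, Kcnk5, Kcnk6, Kcnk15 and Kcnn4. Control replicate 4 did so on 7, among them Kcnh2, the channel of the rapid delayed rectifier, at 4.36 against at most 3.57 on the other control arrays, and Kcng3, Kcnip3, Kcnj11, Kcnk15, Kcnmb1 and Kcnq1. Control replicate 6 stood at 4.02 on the dim Kcnq3 probe set against at most 3.34, and spatial learning replicate 6 at 4.72 on a Kcnc2 probe set just under the filter (mean 3.95) against at most 3.90. In each of these 3 cases (Kcnh2, Kcnq3 and Kcnc2) a single array passed the level of 4 while its group's others did not. The remaining occasions were control replicate 2 on that Kcnc2 probe set, control replicate 3 on Kcns2, control replicate 5 on Kcne3, Kcnma1 and Kcns1, control replicate 6 on Kcna2, Kcne1, Kcnh1 and Kcnh6, and spatial learning replicates 2 on Kcnb2, 3 on Kcnj4 and Kcnk4, and 6 on Kcnma1.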
